A study of Mus musculus with 6 samples.

Results

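The genes described here encode the proteins of the large subunit of the cytosolic ribosome. They were taken from a fixed list of 44 protein-coding genes, spread over 17 chromosomes, out of 21887 protein-coding genes of the mouse RefSeq annotation on GRCm38.p6, which shares its coordinates with mm10. A gene was counted as carrying a region when a row of a peak list lay within 1 kb of either end of its annotation. The rule itself uses no measured value. Where a gene had more than 1 such row, the row of highest −log10 p was taken as its strongest region.

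WDR5 and the histone mark H3K4me3 had been mapped by chromatin immunoprecipitation and sequencing (ChIP-seq) in mouse embryonic stem cells with an Rx:GFP knock-in, grown in 2i+LIF and fixed with 1% formaldehyde for 10 minutes. All cells lacked the endogenous Wdr5 and p53 genes. They were rescued either with wild-type WDR5, here called the WT rescue, or with a WDR5 protein changed at S91K and Y191F, here called the mutant rescue, with positions counted as in the labels. Each line had 1 WDR5 library and 1 H3K4me3 library, without replicates, so differences between the lines cannot be set against replicate spread and no test or p-value is given. The labels do not say whether a line was a clone, and both lines share the loss of p53. The input library of each line was not analysed here.

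The large subunit joins amino acids in its peptidyl transferase centre and passes the growing chain through an exit tunnel, and its protein genes are among the most heavily transcribed genes of dividing cells. Their transcripts commonly begin with a C followed by a pyrimidine tract, the terminal oligopyrimidine (TOP) motif, through which translation is regulated. WDR5 is a WD-repeat scaffold of the complexes that methylate lysine 4 of histone H3, and the trimethylated form, H3K4me3, marks many promoters.

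The WDR5 lists held 11095 rows in WT rescue cells and 26888 in mutant rescue cells, of which 10.8% and 4.83% had a −log10 q of at least 2. The H3K4me3 lists held 71695 and 74305 rows. Read depth is unknown, and the number, width and significance of rows depend on it, so values of different lists are set side by side and not scaled to each other. In such bulk data a region present in fewer cells and a region with less signal per cell cannot be told apart. Of 12 genes that mark embryonic stem cells, 11 (91.7%) had H3K4me3 at a gene end in both lines, against 66.6% of all protein-coding genes. Esrrb had none there.

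Most large-subunit genes carried WDR5 in both lines. A WDR5 region lay at a gene end of 35 of 44 genes in the WT rescue (79.5%, exact 95% Clopper-Pearson interval 64.7 to 90.2%), against 16.3% of all protein-coding genes. The mutant rescue had it at 34 of 44 (77.3%, 62.2 to 88.5%), against 10.7%. The count in both lines was 32 (72.7%, 57.2 to 85.0%), against 4.33%. These intervals cover counting error over genes only.

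The remaining genes were few. A region in the WT rescue alone was listed for 3 genes, Rplp1, Rpl4 and Rpl13a, which is 6.82% of the genes against 12.0% of all protein-coding genes. A region in the mutant rescue alone was listed for Rpl18 and Rpl23a, which is 4.55% against 6.38%. No region at a gene end was listed in either line for 7 genes (15.9%, against 77.3%), namely Rplp2, Rpl10, Rpl14, Rpl17, Rpl19, Rpl21 and Rpl27a.

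The regions themselves fell into separate groups, one wide and of high significance, the other narrow and of low significance. In the WT rescue 27 genes had a strongest WDR5 region with a −log10 q from 24.3 (Rpl39) to 91.7 (Rpl13), and the other 8 lay between 0 (Rpl13a) and 3.82 (Rplp0). The mutant rescue list had 27 genes between 22.9 (Rpl39) and 121 (Rpl13), and the other 7 between 0 (Rpl30) and 7.27 (Rpl3). The 27 genes of the upper group were the same in both lines. No gene of the list fell in the gap between the groups, although Rpl36a and Rpl7l1, outside the list, did, as given below. A −log10 q of at least 20, chosen after these values were seen, is used below to call a region strong.

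Width and fold separated the same groups. The fold is the enrichment at the summit as given by the authors. The 27 strong regions of the WT rescue were 680 to 2261 bp wide with a median of 1179 bp, and their folds ran from 6.98 to 16.5 with a median of 11.2. The 8 weak ones were 168 to 609 bp wide with folds from 1.92 to 4.1. The strong regions of the mutant rescue were 747 to 2561 bp wide (median 1258 bp) with folds from 5.34 to 17.8 (median 12.4), and the weak ones 180 to 689 bp wide with folds from 2.08 to 4.51. Over all protein-coding genes with a region, the median fold was 2.73 and the median width 249 bp in the WT rescue. In the mutant rescue list these medians were 2.55 and 233 bp. The weak regions of the large-subunit genes thus lay near the level of a typical gene with a WDR5 row, and the strong ones far above it.

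**Figure D1:**
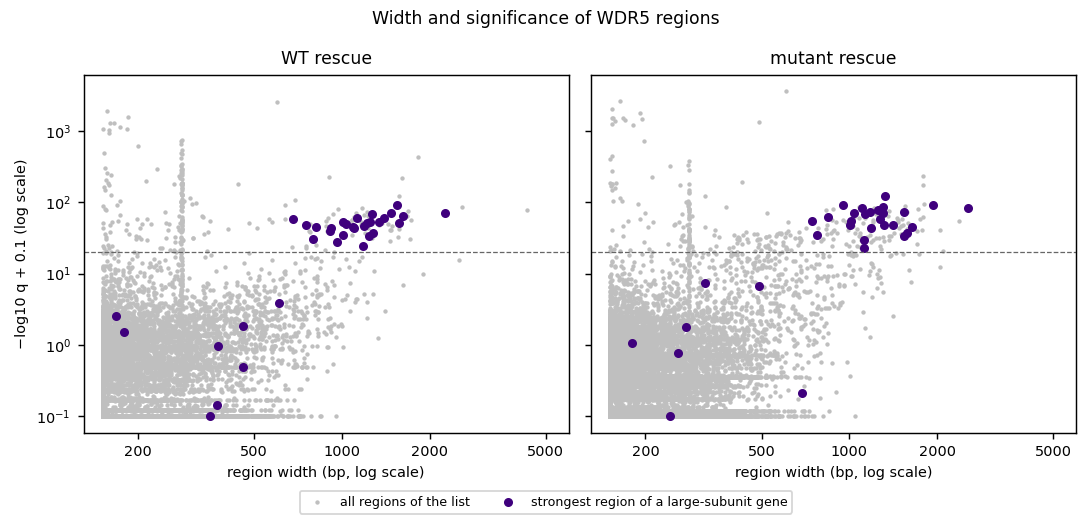
Width in bp (log axis) against −log10 q plus 0.1 (log axis) of WDR5 regions, WT rescue left and mutant rescue right. Grey points are all rows of the list, purple points the strongest region of each large-subunit gene, and the dashed line is a −log10 q of 20. In each list 27 genes sit above the line at widths of 680 bp or more, and the others sit below it.

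Within each list the strong regions ranked high. Of the 200 rows of highest −log10 p, the strongest regions of large-subunit genes made up 22 in WT rescue cells and 25 in mutant rescue cells. Of the top 100 by −log10 p, however, they made up only 1 in WT rescue cells and 15 in mutant rescue cells. Of the 100 widest rows they made up 22 and 20, and of the 100 rows of highest fold 9 and 21. In all, 80 protein-coding genes had a strong region in both lines, which is 0.366% of genes, and 27 of these 80 were large-subunit genes. Another 14 encode small-subunit proteins, and 11 lay at a region shared with a ribosomal protein gene. The last 28, called other strong genes below, had a strong region not shared with a ribosomal protein gene. Genes within this last group may share a row with each other, and such a row is counted for each. The group, named after its values were seen, includes Eef2 and Eef1g, which encode translation elongation factors. It also includes Rack1, which encodes a protein bound to the small subunit.

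Requiring a −log10 q of at least 2 left 29 large-subunit genes with WDR5 in each line (65.9%), against 2.35% of all genes in WT rescue cells and 1.72% in mutant rescue cells. Of these, 27 had it in both lines (61.4%, against 0.822%). At this threshold Rplp0 and Rpl4 carried WDR5 in the WT rescue alone (against 1.53% of all genes), Rpl3 and Rpl28 in the mutant rescue alone (against 0.9%), and 13 genes in neither line (29.5%, against 96.8%). The 27 genes with WDR5 in both lines at this threshold are those with a strong region in both.

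The 10 genes of highest WT rescue fold among those with WDR5 in both lines came from several parts of the subunit. Rpl38 had the highest fold, 16.5 in WT rescue cells and 12.4 in mutant rescue cells, in rows of 1472 and 1013 bp at chr11:114668200-114669671 and chr11:114668327-114669339. Its protein is known for its part in the translation of Hox transcripts. Rpl36 followed with folds of 15.5 and 14.0 in rows of 2261 and 2561 bp, which were the widest of all large-subunit genes in both lists. The WT rescue row lay at chr17:56612111-56614371, over the higher-coordinate end of the gene at chr17:56610094-56614246. Rpl7a had 15.0 and 12.7, with rows of 1273 and 1302 bp, the first at chr2:26910550-26911822.

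Rpl12, whose protein sits at the base of the stalk that recruits translation factors, had folds of 13.4 and 14.2. Rpl37a had 13.4 in WT rescue cells and 8.63 in mutant rescue cells. Rpl13 had 13.3 and 15.0 and the highest −log10 q of the family in both lists, its WT rescue row lying at chr8:123101920-123103459. The folds of these genes did not keep 1 order between the lists.

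Rpl10a, whose protein forms the L1 stalk where spent transfer RNA leaves, had a fold of 13.0 in both lists. Rpl34 had 12.9 and 10.0, and Rpl8 had 12.7 and 10.9. Rpl32 had 12.3 and 13.4. The highest fold of the mutant rescue list among these genes belonged to Rpl26, with 17.8 against 11.2 in the WT rescue list. Whether any such difference between the lists exceeds the spread between libraries was not tested.

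**Figure D2:**
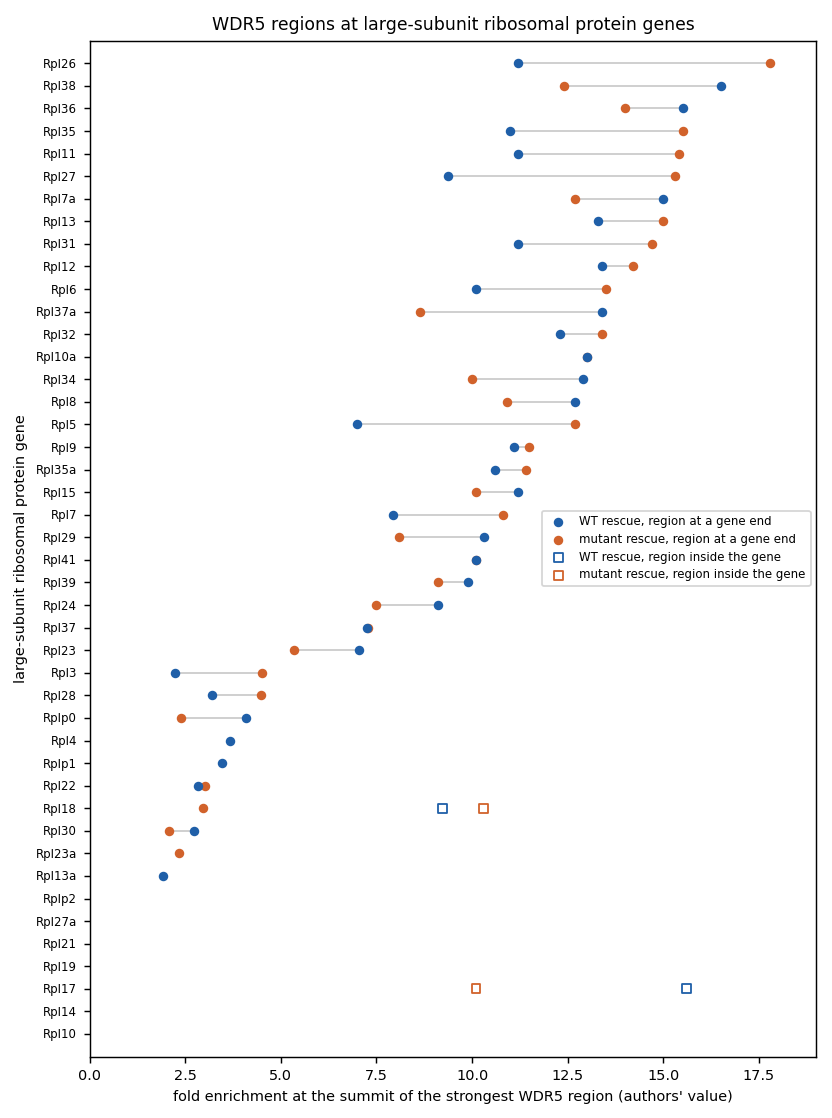
Fold enrichment at the summit of the strongest WDR5 region (authors' value) for each of the 44 genes, with the WT rescue in blue and the mutant rescue in orange. Filled points are regions at a gene end, open squares are regions inside the annotated gene of Rpl17 and Rpl18, and grey lines join both lines of a gene. The 27 genes with a strong region have folds of 5.34 or more in both lists, and the filled points of all other genes lie at 4.51 or less.

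The promoters below show where the annotated starts of such genes lie and what their sequences share. Each runs 5′ to 3′ from 130 bases before the RefSeq start site to 20 bases from it on, 150 bases in all, on GRCm38.p6, and all 6 genes lie on the plus strand. Capitals mark matches to the motifs searched, on either strand. Rpl38 and Rpl7a are among the 3 genes of highest WT rescue fold. Rpl18, added after its values were seen, has a strong region at its start. Rpl4 has a weak region in the WT rescue alone, and Rpl10 and Rpl14 have none at a gene end. Rpl36 and Rplp1 are not in the promoter table.
Rpl38: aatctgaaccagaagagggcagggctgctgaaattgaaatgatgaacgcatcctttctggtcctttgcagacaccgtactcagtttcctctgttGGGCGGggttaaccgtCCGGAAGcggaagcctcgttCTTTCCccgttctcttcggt
Rpl7a: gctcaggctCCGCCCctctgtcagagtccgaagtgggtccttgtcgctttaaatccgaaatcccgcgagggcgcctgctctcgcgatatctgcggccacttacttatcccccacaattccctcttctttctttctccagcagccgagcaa
Rpl18: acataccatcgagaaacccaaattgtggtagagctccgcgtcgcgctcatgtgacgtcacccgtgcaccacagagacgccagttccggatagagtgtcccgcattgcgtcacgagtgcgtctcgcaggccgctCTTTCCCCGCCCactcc
Rpl4: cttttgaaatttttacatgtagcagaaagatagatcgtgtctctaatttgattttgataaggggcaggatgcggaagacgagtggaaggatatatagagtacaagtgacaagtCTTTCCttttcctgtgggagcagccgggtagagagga
Rpl10: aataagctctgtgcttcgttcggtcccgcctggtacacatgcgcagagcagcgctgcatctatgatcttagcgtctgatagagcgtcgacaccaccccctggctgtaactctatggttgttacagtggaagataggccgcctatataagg
Rpl14: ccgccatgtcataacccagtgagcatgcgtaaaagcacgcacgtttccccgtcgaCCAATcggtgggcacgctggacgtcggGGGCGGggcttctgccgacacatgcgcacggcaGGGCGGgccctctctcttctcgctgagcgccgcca
They lie at chr11:114668450-114668599, chr2:26910677-26910826, chr7:45717941-45718090, chr9:64173257-64173406, chrX:74270686-74270835 and chr9:120571387-120571536, in the order printed. In Rpl38 the start base is the C that opens CTTTCC, a pyrimidine tract of the TOP kind, preceded by an ETS-type CCGGAAG and a GC box GGGCGG. The tract also occurs at the start of Rpl18 and just before the start of Rpl4, so it is found both with and without a strong WDR5 region.

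The promoter table covers 33 of the 44 genes, of which 22 had a strong region at a gene end. Motifs were searched from 250 bases before to 50 after the start, on both strands except where stated, and the same was done for 17492 protein-coding promoters. CTTTCC, on the sense strand within 20 bases of the start, was found in 7 of 33 (21.2%) against 1.84% of all promoters, with 3 of 22 among the strong genes and 4 of 11 among the rest, which here include Rpl18 because its strong region lies inside the gene. A C stood at the start base of 10 of 33 (30.3%) against 13.7%. These shares describe the family, and whether strong and other genes differ in them was not tested.

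CCGGAAG, the core of ETS factor motifs, was found in 13 of 33 promoters (39.4%) against 11.9%, with 10 of 22 among strong genes and 3 of 11 among the rest. GGGCGG, the GC box, was found in 21 (63.6%) against 46.3%, at 63.6% in either group. The E-box CACGTG was found in 5 (15.2%) against 7.91%, and the YY1 motif AAGATGG in 4 (12.1%) against 6.35%. TATAAA, the TATA box, was found in 3 (9.09%) against 13.3%, and CCAAT in 11 (33.3%) against 39.2%. The median GC content was 59.0% against 56.3%. A match describes letters in a window and is not a bound site.

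Sorted by the role of the protein, 3 of 8 named structures held genes with and without a strong region at a gene end, and the other 5 held genes of one kind. Each gene was placed under a single role, so a structure here need not hold every protein that lies at it. Neither the grouping nor the counts below were tested. The P stalk, which recruits the translational GTPases, stood apart from its base. None of its 3 genes had a strong region: Rplp0 had folds of 4.1 and 2.39, Rplp1 had 3 weak rows in the WT rescue with a highest fold of 3.46, and Rplp2 had no row. Rpl12 at the base had a strong region in both lines, as given above.

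Both protein genes of the 5S particle had strong regions. Rpl5 and Rpl11 encode proteins that bind 5S ribosomal RNA and, outside the ribosome, the p53 regulator Mdm2. Rpl11 had folds of 11.2 in WT rescue cells and 15.4 in mutant rescue cells, with rows of 1247 and 1541 bp. Rpl5 had 6.98, the lowest fold of the 27 in WT rescue cells, and 12.7 in mutant rescue cells, with −log10 q of 34.7 and 71.0.

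Near the peptidyl transferase centre the genes differed. Rpl8 had strong regions in both lines. Rpl3, whose protein reaches towards the centre, had a row of fold 2.24 and −log10 q 0.0442 in the WT rescue and a row of fold 4.51 and −log10 q 7.27 in the mutant rescue. Rpl10, whose protein joins the subunit late in its maturation, had no WDR5 row at either gene end, although H3K4me3 was listed there in both lines with folds of 5.35 and 6.88.

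The tunnel proteins were likewise mixed. Of the 3 genes lining the tunnel, Rpl17 had a strong region inside the gene, with folds of 15.6 and 10.1. Rpl39 had strong regions with folds of 9.9 and 9.12 and the lowest −log10 q of the strong group in both lists, 24.3 and 22.9. Rpl4 had a row of 168 bp with fold 3.68 and −log10 q 2.45, and a weaker second row, in the WT rescue alone. Around the mouth of the tunnel, where nascent-chain factors dock, Rpl26, Rpl31 and Rpl35 had strong regions and Rpl19 and Rpl23a did not. Rpl31 had folds of 11.2 and 14.7, and Rpl35 had 11.0 and 15.5. Rpl23a had 2 weak rows in the mutant rescue alone, with folds of 2.33 and 2.03, and the stronger lay 435 bp outside the gene.

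Both genes placed here under the subunit interface, which need not be all the genes whose proteins lie there, had strong regions. Rpl24 had folds of 9.1 and 7.49, and Rpl41, which encodes one of the shortest known proteins, had 10.1 in both lists. Of the other 24 genes, 16 had strong regions at a gene end. Besides those already named these were Rpl6 (10.1 and 13.5), Rpl7 (7.94 and 10.8), Rpl9 (11.1 and 11.5), Rpl15 (11.2 and 10.1), Rpl23 (7.04 and 5.34) and Rpl27 (9.36 and 15.3). The last were Rpl29 (10.3 and 8.08), Rpl35a (10.6 and 11.4) and Rpl37 (7.25 and 7.28), with folds of the WT rescue first.

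Weak rows remained at several of these genes. Rpl28 had folds of 3.21 and 4.47, Rpl22 had 2.84 and 3.01, and Rpl30 had 2.73 and 2.08. Rpl13a, whose protein also acts outside the ribosome in silencing inflammatory transcripts, had a single row of fold 1.92 and −log10 q 0 in the WT rescue. Of these rows only that of Rpl28 in the mutant rescue, with a −log10 q of 6.56, passed a −log10 q of 2.

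The count at gene ends missed strong rows that lie well inside 2 annotated genes, which was noticed after the values were seen. Rpl17 had a row 1088 bp inside the gene in the WT rescue, with fold 15.6, −log10 q 70.7 and width 1117 bp. Its row in the mutant rescue lay 1173 bp inside, with fold 10.1, −log10 q 59.6 and width 1136 bp. That fold would rank second in the WT rescue among all 44 genes.

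Rpl18 was the other. Its gene-end row in the mutant rescue, of fold 2.97, was the basis for counting it as mutant rescue alone. Inside the gene, 1975 bp from the nearest end in WT rescue cells and 1952 bp in mutant rescue cells, it had rows of fold 9.22 and 10.3, with −log10 q of 53.1 and 55.5 and widths of 1051 and 1203 bp. Their summits lay 145 and 133 bp downstream of the RefSeq start shown in the printed promoter. With Rpl17 and Rpl18, 29 of the 44 genes (65.9%) had a strong WDR5 region in both lines. Counted in the same way over the whole gene and 1 kb either side, 123 of all 21887 protein-coding genes (0.562%) did.

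Rows near the limit of the window were otherwise weak. The farthest rows inside it were at Rpl23, 841 bp from the gene end with fold 2.44 in the WT rescue, and at Rpl22, 652 and 653 bp away with folds of 2.84 and 3.01. The nearest rows outside it, after those of Rpl17, belonged to Rpl15 at 1340 bp with fold 2.77 in the mutant rescue. Inside Rpl19, at 3046 bp from the nearest end, a row of fold 2.56 and −log10 q 0.972 was listed in the WT rescue, with its summit 528 bp downstream of the start.

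Some regions were shared with neighbours. At 10 of the 44 genes the strongest WDR5 row also lay within 1 kb of an end of another protein-coding gene. These pairs were Rpl4 and Zwilch, Rpl7a and Med22, Rpl9 and Lias, Rpl12 and Lrsam1, and Rpl15 and Nkiras1. The others were Rpl23a and Tlcd1, Rpl35a and Iqcg, Rpl36 and Lonp1, Rpl37 and Card6, and Rpl41 and Zc3h10. At these loci a row cannot be assigned to one gene.

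Small nucleolar RNA genes, which sit in introns of many ribosomal protein genes and guide ribosomal RNA modification, were found with and without strong regions. In all, 19 of the 44 genes hosted 39 of them. Among the 29 genes with a strong region 10 were hosts, of 17 small nucleolar RNAs, and among the other 15 genes 9 were hosts, of 22. Rpl4 with 5 and Rpl13a with 4 are hosts without a strong region, and Rpl7a with 4 is a host with one. The difference between these shares was not tested.

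H3K4me3 was listed at nearly every gene, whatever its WDR5 group. All 44 genes had it at a gene end in WT rescue cells and 43 (97.7%) in mutant rescue cells, against 68.4% and 67.6% of all protein-coding genes, and 43 had it in both lines, against 66.6%. The exception was Rpl17 (WT rescue alone, 2.27% against 1.84%), whose H3K4me3 row in the mutant rescue began 1175 bp inside the gene, past the window. No gene had it in the mutant rescue alone (against 1.01%) or in neither line (against 30.6%).

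H3K4me3 at the 27 strong genes was of moderate fold and wide compared with other genes. In the WT rescue its median fold there was 5.75 and its median width 2370 bp, against 10.2 and 1512 bp at protein-coding genes outside the family. The mutant rescue values were 9.27 and 1901 bp, against 10.4 and 1447 bp. Strong small-subunit genes were similar, with median folds of 4.95 in WT rescue cells and 9.06 in mutant rescue cells and median widths of 2672 and 2087 bp. The other strong genes had median folds of 5.86 and 8.56 and median widths of 2430 and 2056 bp. The other large-subunit genes had median folds of 5.15 and 6.88. Both family medians thus lay below that of other genes in each list, although single genes such as Rpl29, with 12.1 in the mutant rescue, lay above it.

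WDR5 summits lay inside H3K4me3 regions almost throughout. This held for 33 of 35 genes in the WT rescue (94.3%, against 90.4% of all genes with a WDR5 row) and 31 of 34 in the mutant rescue (91.2%, against 68.8%). All 27 strong regions had their summit inside an H3K4me3 region in both lines. The summits outside were those of Rpl3 and Rpl22 in the WT rescue, and of Rpl18, Rpl22 and Rpl23a in the mutant rescue. Each of these belonged to a weak row.

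The WDR5 summit lay just downstream of the start. For the 22 strong genes with an annotated start site, it lay at a median of 176 bp downstream in the WT rescue (121 to 282 bp) and 158 bp in the mutant rescue (66 to 323 bp). The medians were similar elsewhere, 171 and 174 bp at all genes outside the family and 164 and 178 bp at strong small-subunit genes. The spread outside the family was much wider, with quartiles of −48 to 384 bp in WT rescue cells and −147 to 496 bp in mutant rescue cells. At the 22 strong genes the quartiles were 148 to 210 bp and 145 to 184 bp. Those of strong small-subunit genes were 144 to 209 bp and 147 to 215 bp. In the WT rescue the median row ran from 218 bp upstream to 894 bp downstream of the start. The median row of the mutant rescue ran from 284 bp upstream to 802 bp downstream. Between the lines the summit of a gene differed by a median of 33 bp (3 to 133 bp, 27 genes). The gene table gives ends and no exons, so whether a summit lies in an exon or an intron is not stated.

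**Figure D3:**
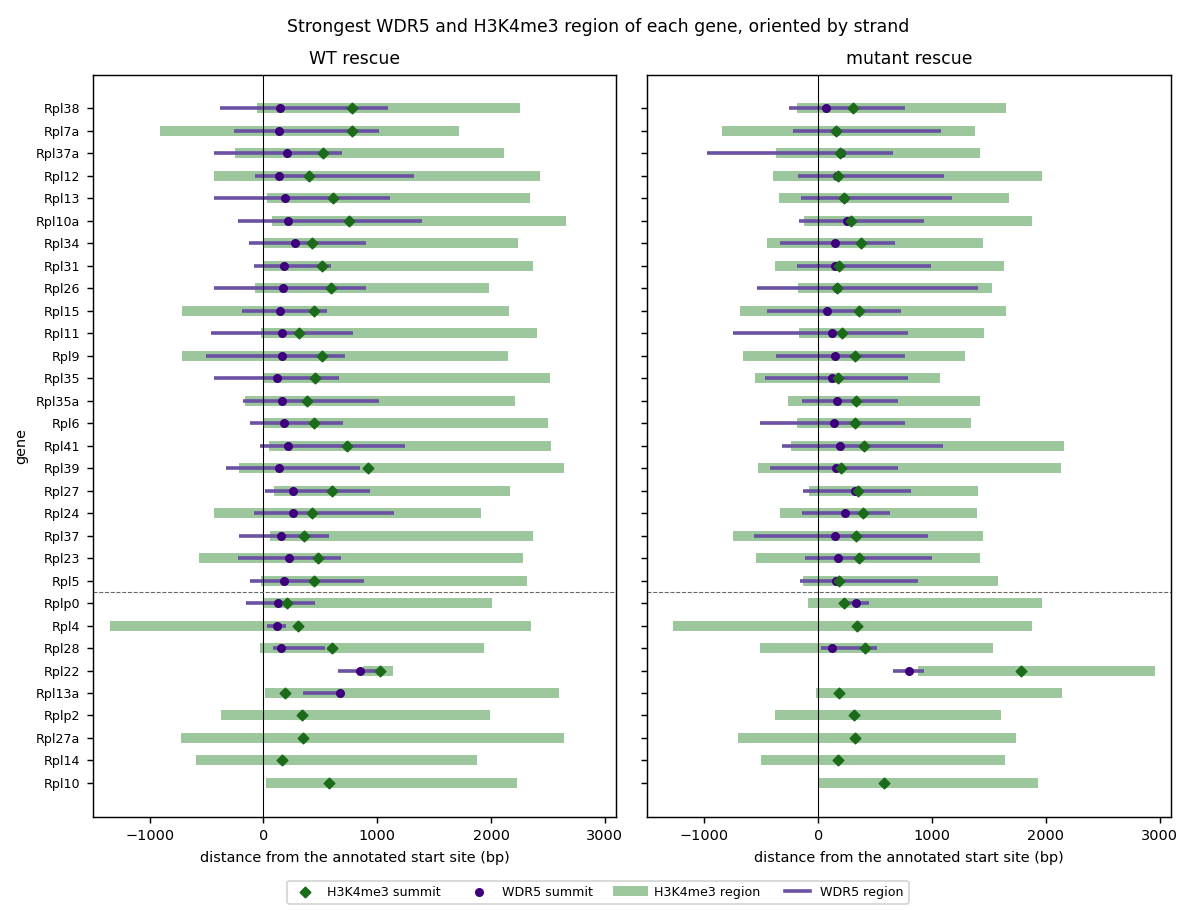
Position in bp from the annotated start site, oriented by strand, of the strongest WDR5 region (purple line, summit as a dot) and the strongest H3K4me3 region (green bar, summit as a diamond) of 31 large-subunit genes, WT rescue left and mutant rescue right. The 22 genes above the dashed line have a strong WDR5 region in both lines, ordered by WT rescue fold. In these the WDR5 summits line up at 66 to 323 bp downstream in both panels, while the H3K4me3 summits lie at 314 to 921 bp in the left panel and 159 to 399 bp in the right.

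The H3K4me3 summit, unlike that of WDR5, stood at different places in the lines. At the 22 strong genes it lay at a median of 494 bp downstream of the start in the WT rescue (314 to 921 bp) and 298 bp in the mutant rescue (159 to 399 bp). It was farther upstream in the mutant rescue at all 22, by a median difference of −256 bp (−717 to −29 bp, negative being upstream). The difference exceeded 100 bp upstream at 17 of 22 (77.3%), against 10.5% of 10234 genes outside the family, where 8.71% differed as much downstream and the median was −1 bp.

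The values at single genes show its range. At Rpl39 the H3K4me3 summit lay 921 bp downstream in WT rescue cells and 204 bp in mutant rescue cells. At Rpl7a it lay at 781 and 159 bp, and at Rpl38 at 777 and 306 bp. At the other end Rpl37 had 357 and 328 bp, and Rpl24 had 425 and 391 bp. Rpl18, on the row that lies over its start, had 370 and 168 bp.

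At large-subunit genes without a strong region the H3K4me3 summits lay close together in the lines. Over 9 such genes with an annotated start, leaving out Rpl18 and Rpl19, whose gene-end rows lie far from it, the median difference was 1 bp, with 4 upstream and 5 downstream. Rplp2 had summits at 336 and 317 bp, Rpl10 at 578 and 579 bp, Rpl14 at 165 and 178 bp, and Rpl27a at 351 and 322 bp. The extremes were Rpl28 at −190 bp and Rpl22 at 755 bp. The value of Rpl22 came from a row of 258 bp at the edge of the window in the WT rescue, and on its main row, farther inside the gene, the summits lay at 1766 and 1782 bp, a difference of 16 bp.

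**Figure D4:**
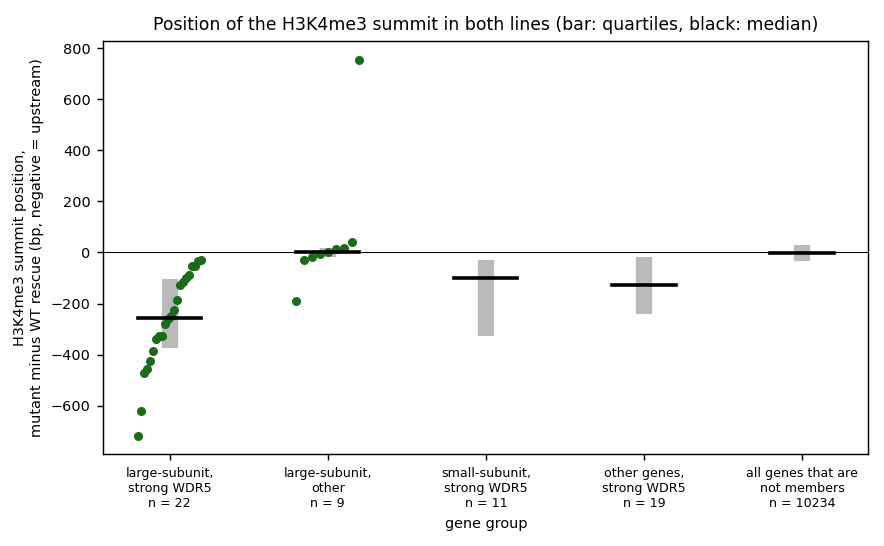
Difference in the position of the H3K4me3 summit, mutant rescue minus WT rescue, in bp along the direction of transcription, negative being upstream. Dots are single large-subunit genes, grey bars the quartiles and black lines the median of each gene group. All 22 dots of the strong large-subunit genes lie below 0, with a median of −256 bp, while the other 9 scatter around 0 with a median of 1 bp.

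The difference was not confined to the large-subunit genes. At 11 small-subunit genes with a strong WDR5 region the H3K4me3 summit lay upstream in the mutant rescue at all 11, by a median of −100 bp, with 5 beyond 100 bp. At 19 of the other strong genes it lay upstream at 15, by a median of −129 bp, with 10 beyond 100 bp. The strong genes of the large subunit had the larger median difference, and the difference between these groups was not tested.

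The edges of the H3K4me3 rows differed too. At the 22 strong genes the downstream edge lay at a median of 2301 bp in WT rescue cells and 1456 bp in mutant rescue cells, and it lay farther upstream in the mutant rescue at all 22, by a median of −735 bp (−1452 to −344 bp). At the other 9 large-subunit genes the median was −383 bp, upstream at 8, and outside the family it was −42 bp. The exception was Rpl22, again through its WT rescue row of 258 bp. On its main row the downstream edge lay at chr4:152327927 in WT rescue cells and chr4:152327394 in mutant rescue cells, so there too it was farther upstream. Strong small-subunit genes had a larger median, −887 bp, upstream at 11 of 11, and the other strong genes had −494 bp, upstream at 18 of 19. A nearer downstream edge was thus also listed at genes without a strong region, where the median summit difference was 1 bp.

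The upstream edge of the strong genes lay at a median of −39.5 bp in WT rescue cells and −360 bp in mutant rescue cells, against −484 and −459 bp outside the family. Strong small-subunit genes had similar medians, −6 and −393 bp, with the edge farther upstream in the mutant rescue at 10 of 11. The other strong genes had −346 and −561 bp, with the edge farther upstream there at 10 of 19. For the WT rescue the H3K4me3 row began at or after the start site in 9 of 22 (40.9%) of the strong genes, against 4.73% of genes outside the family. In the mutant rescue this was so for 0 of 22, against 4.66%. These edges are those of the strongest row alone. In the WT rescue 5 of the 22 strong genes (22.7%, against 4.46% outside the family) had a second row upstream, 177 to 375 bp away. They were Rpl13, Rpl31, Rpl34, Rpl35 and Rpl37, all among the 9, and none was split in the mutant rescue. Of the strong genes, these differed most in upstream edge, from −377 bp (Rpl13) to −806 bp (Rpl37). The strong genes whose row reached farthest upstream in the WT rescue were Rpl7a (−910 bp), Rpl9 (−716 bp) and Rpl15 (−714 bp), each of which shares its region with a neighbouring gene. Their rows began at −847, −660 and −690 bp in the mutant rescue. Among the other 9 large-subunit genes a row beginning at or after the start was listed for 4 in WT rescue cells and 2 in mutant rescue cells.

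The split rows left a gap in H3K4me3 at the start of some genes, so this gap and the upstream edges above are not separate observations. In the WT rescue the start sites of Rpl13, Rpl31, Rpl35 and Rpl37 lay between a row upstream and a row downstream, 177 to 375 bp apart. In the mutant rescue a single row crossed the start at each of these 4 genes. A gap holding the start was listed for 4 of 22 strong genes (18.2%) in WT rescue cells and 0 in mutant rescue cells, against 1.25% and 0.704% of genes outside the family. Among the genes without a strong region it was listed for Rpl13a in the WT rescue alone, with 527 bp, and for Rpl10 in the mutant rescue alone, with 171 bp.

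Over all 27 strong genes the H3K4me3 row was narrower in the mutant rescue at 26, against 73.2% of genes outside the family. It was also narrower at 13 of 14 strong small-subunit genes and at 25 of 26 of the other strong genes. The same held for all 6 large-subunit genes that had H3K4me3 in both lines and WDR5 in neither. The exception among the 27 was Rpl7, whose row was 1346 bp wider in the mutant rescue. At Rpl7 the WT rescue list held 2 rows, of 1561 and 1695 bp, where the mutant rescue list held 1 row of 3041 bp.

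The distance between the WDR5 and H3K4me3 summits also differed between the lines. At the 27 strong genes it had a median of 315 bp in the WT rescue (144 to 807 bp) and 49 bp in the mutant rescue (1 to 1334 bp), and it was shorter in the mutant rescue at 25 of 27. The value of 1334 bp is that of Rpl7, with the single H3K4me3 row of 3041 bp. Summits within 50 bp of each other were found at 0 of 27 in the WT rescue and 14 of 27 (51.9%) in the mutant rescue, against 19.4% and 17.7% outside the family.

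Single genes show the same. At Rpl13 the distance was 1 bp in the mutant rescue, as it was at Rpl7a and Rpl36. At Rpl12 and Rpl37a it was 3 bp. At Rpl17 and Rpl18, on their rows inside the gene, it was 222 and 225 bp with WT rescue, and 171 and 35 bp with mutant rescue, respectively. The strong small-subunit genes had medians of 327 and 41.5 bp, with 0 and 8 of 14 within 50 bp. The other strong genes had medians of 254 and 117 bp, with 2 and 12 of 28 within 50 bp. Their distance was shorter in the mutant rescue at 23 of 28, so the difference was not confined to ribosomal protein genes.

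**Figure D5:**
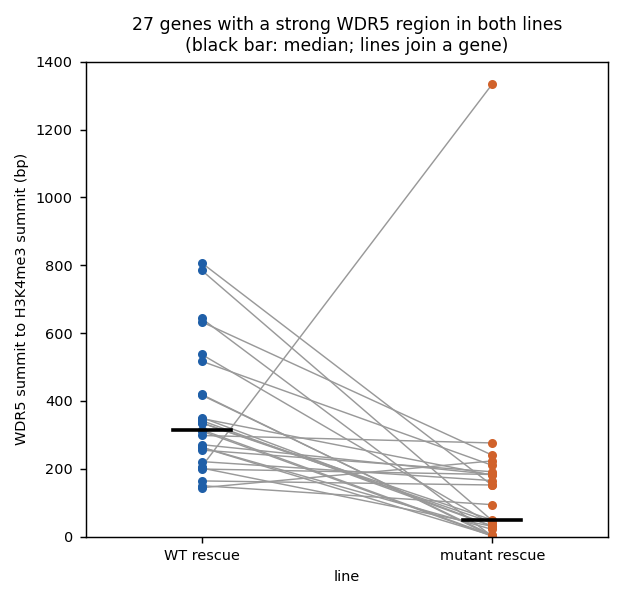
Distance in bp between the WDR5 summit and the H3K4me3 summit at the 27 large-subunit genes with a strong WDR5 region in both lines. Grey lines join the values of a gene and black bars are medians, 315 bp in WT rescue cells and 49 bp in mutant rescue cells. All genes but 2 run downward from left to right, and the point at 1334 bp is Rpl7.

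The overlap of the regions followed. A median of 86.9% of a strong WDR5 region lay under H3K4me3 in WT rescue cells, and a median of 100% in mutant rescue cells. The WDR5 summit lay a median of 199 bp from the nearest H3K4me3 edge in WT rescue cells and 564 bp in mutant rescue cells. At strong small-subunit genes the median shares were 86.2% and 92.7%, and the median edge distances 172 and 500 bp. The WDR5 rows of Rpl13 and Rpl35 touched 2 H3K4me3 rows each in the WT rescue, spanning the gap at the start. Read depth and fragment size of the H3K4me3 libraries are not in the lists.

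Other gene groups of the ribosome set these counts in context. Of 32 small-subunit genes, 17 had WDR5 at a gene end in both lines, 7 in the WT rescue alone, 2 in the mutant rescue alone and 6 in neither, and 14 (43.8%) had a strong region in both lines, against 27 of 44 (61.4%). Their highest folds were close to those of the large subunit: Rps6 had 17.1 and 14.3, Rps24 14.2 and 16.4, Rps7 14.1 and 11.8, and Rps10 13.4 and 13.7. Whether the subunits differ was not tested.

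Genes that resemble large-subunit genes or serve them had no strong region in both lines, which 0.366% of all protein-coding genes had. Of 8 paralogs and further large-subunit genes outside the list, 3 had WDR5 in both lines (37.5%, against 4.33% of all protein-coding genes). Among them Rpl36a had folds of 5.12 and 8.19, with −log10 q of 9.04 and 18.7. Rpl7l1 had folds of 4.06 and 8.29, with −log10 q of 7.95 and 25.7. The other 5 had none, and 0 of 8 were strong in both lines. Of 24 genes for factors that assemble the large subunit, 1 had WDR5 in both lines (Rrs1, folds 1.83 and 1.74). That is 4.17%, near the 4.33% of all genes. Another 7 had it in the WT rescue alone, led by Nop2 with 3.57, against 12.0% of all genes. The mutant rescue alone had it at 1 (Bop1, 1.85), against 6.38%. None of these 24 was strong, and H3K4me3 was listed at all of them in both lines.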

How the data were processed

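The deposited peak lists of 4 libraries were used. Per the submitters' processing notes, the tools were MACS2 2.1.2, BWA 0.7.17-r1188, Picard and SAMtools and the build mm10, and settings and control are not given in the sources used here. The deposited rows give the authors' fold at the summit (a ratio), −log10 p, −log10 q, a score that was not used, and a summit offset, and one list belongs to 1 library. The lowest −log10 p was 2.00. Depth is unknown, which limits what can be read from widths and counts.

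Rows were matched with Python 3.11.15, numpy 2.4.6 and pandas 2.3.3 to gene ends from a RefSeq table on GRCm38.p6, with a window of 1 kb. Starts, strands and sequences came from the RefSeq promoter table of the same build. Intervals used scipy 1.17.1 and plots matplotlib 3.10.9. The matching was tested on simulated data.

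The genes, gene lists, roles and comparisons were chosen with earlier results of these data known. All 44 genes are accounted for by class, with values for the 10 of highest WT rescue fold in both lines, those in 1 line alone, those with a summit outside H3K4me3 and those sharing a region, and up to 4 genes per class in other lists, of which 1 is not reported here. The roles, the split at a −log10 q of 20 and the rows inside Rpl17 and Rpl18 were chosen after values were seen. No test between lines was possible. Alternatives were thresholds of 2 on −log10 q and of 5 on −log10 p, and both lists of each antibody cut to the shorter length. Others were windows of 0.5 and 2.5 kb, start sites alone, an overlap of at least 50%, and the whole gene.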

Additional observations from a re-analysis of the deposited data

How the results depend on the processing

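No paired analysis was possible because each antibody and line had 1 library and no result comes from a test. For 13 results under 8 alternatives, 93 values were recomputed. A count was called unchanged within 1.5 times the reported count. A median was called unchanged within a binomial interval of the reported median, which is not printed here. By these rules 84 values stayed and 9 moved, all of them counts of genes in the smaller classes. Genes with WDR5 in the WT rescue alone numbered 5 with a window of 0.5 kb, against 3. Genes in the mutant rescue alone, 2 as reported, numbered 1 with lists of equal length, 0 with a window of 2.5 kb, 1 with a window of 0.5 kb, 0 with start sites alone and 1 with the whole gene and 1 kb either side, an alternative chosen after seeing the data. Genes in neither line, 7 as reported, numbered 13 with −log10 q from 2 upward, 11 with −log10 p from 5 upward and 4 with start sites alone, where only the 33 genes with an annotated start enter. The first of these alternatives leave fewer rows and the last fewer genes. For the other changes the cause was not tested. The number of genes with WDR5 in both lines ranged from 27 to 35 of 44, and with start sites alone it was 26 of 33. The unknown read depth limits what any absent row shows.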
